A study of Mus musculus with 6 samples.

Results

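The GATA factors Gata2, Gata3, Gata4, Gata5 and Gata6 were examined for trimethylated lysine 27 of histone H3 (H3K27me3) in mouse ovarian granulosa cells (GCs). The genes were chosen by name, 5 of 21938 protein-coding genes, and each was followed from 5 kb upstream of its annotated 5′ end to its 3′ end in the mm10 (GRCm38) assembly. All libraries came from 3-week-old female ICR mice primed with pregnant mare serum gonadotropin, with GCs from 3 mice pooled in each. The PBS group (3 libraries) had received an intraperitoneal injection of phosphate-buffered saline, and the CTX group (3 libraries) one of cyclophosphamide, an alkylating chemotherapeutic agent. GCs were taken 6 h after the injection and profiled by CUT&Tag, in which an antibody directs a transposase to cut and tag the DNA around the marked nucleosomes. The study asked whether CTX treatment was followed by loss of H3K27me3 at genes of GCs.

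GATA factors are zinc-finger transcription factors that bind the DNA motif GATA, and they specify cell lineages in the embryo. Gata2 and Gata3 belong with Gata1 to the subfamily best known from blood cells: Gata2 maintains haematopoietic progenitors and Gata3 directs T cell development. Gata4, Gata5 and Gata6 form the subfamily best known from heart and endoderm, and Gata4 and Gata6 also act in GCs, where they drive genes of steroid synthesis and follicle growth. H3K27me3 is laid down by Polycomb repressive complex 2, whose catalytic subunit is EZH2, and it typically covers silent genes of other lineages in broad domains.

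Gata4 and Gata6, the paralogs that act in GCs, carried no called H3K27me3 interval in any of the 6 libraries. Gata2 and Gata5 carried called intervals in all 6 libraries, and Gata3 in 5, all except CTX replicate 3. The marked genes thus came from both subfamilies. Of all protein-coding genes, 4.53% had a called interval in all 6 libraries and 80.5% had none in any library, so the state of Gata4 and Gata6 was that of most genes. No member had calls in all 3 PBS libraries and in no CTX library, a pattern shown by 0.337% of genes.

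The sequences below are stretches from the region at the 5′ end of each marked gene that was called in the most libraries, a second stretch from the 3′ part of Gata2, and, for contrast, the 200 bp upstream of the start of the transcript Gata4-201, where nothing was called. Each is written 5′ to 3′ on the strand of its gene, as read from the GRCm38 assembly, and capitals mark CG dinucleotides, the sites of DNA methylation, which are dense in CpG islands.
Gata2 upstream (chr6:88193313-88193502, plus strand): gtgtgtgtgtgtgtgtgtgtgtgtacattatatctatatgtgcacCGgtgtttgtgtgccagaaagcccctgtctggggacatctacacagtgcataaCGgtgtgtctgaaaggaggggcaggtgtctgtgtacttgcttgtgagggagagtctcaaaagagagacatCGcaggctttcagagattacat
Gata2 3′ part (chr6:88205382-88205491, plus strand): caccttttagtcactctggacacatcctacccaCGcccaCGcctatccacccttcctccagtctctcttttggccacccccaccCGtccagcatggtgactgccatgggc
Gata3 5′ intron (chr2:9889337-9889528, minus strand): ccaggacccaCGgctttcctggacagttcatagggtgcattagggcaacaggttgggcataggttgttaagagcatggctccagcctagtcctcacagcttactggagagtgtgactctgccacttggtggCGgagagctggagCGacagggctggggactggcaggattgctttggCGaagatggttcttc
Gata5 5′ part (chr2:180333733-180333922, minus strand): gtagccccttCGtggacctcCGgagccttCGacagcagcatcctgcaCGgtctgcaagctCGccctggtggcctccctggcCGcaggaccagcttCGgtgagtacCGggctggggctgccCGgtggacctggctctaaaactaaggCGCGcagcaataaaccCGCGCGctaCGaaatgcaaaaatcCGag
Gata4 upstream of Gata4-201 (chr14:63245272-63245471, minus strand): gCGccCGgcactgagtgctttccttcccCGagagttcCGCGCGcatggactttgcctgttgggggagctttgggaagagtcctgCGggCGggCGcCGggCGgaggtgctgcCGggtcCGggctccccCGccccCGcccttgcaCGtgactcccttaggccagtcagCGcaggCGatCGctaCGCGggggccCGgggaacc

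The Gata2 upstream stretch of 190 bp lay 578 to 389 bp before the 5′ end of the gene and was covered in 5 libraries. It began with a run of alternating g and t and held 3 CG dinucleotides, 0.301 of the number expected from its base composition. Of its bases, 17.4% were soft-masked as repeat. The stretch in the 3′ part of Gata2 was the end of the coding sequence in the last exon and was covered in full in the 3 PBS libraries. The Gata3 stretch of 192 bp lay 506 to 697 bp downstream of the 5′ end, in an intron of the transcript Gata3-202, was covered in 5 libraries and held 4 CG dinucleotides (0.271 of expected). It also lay inside a non-coding exon of 9230102O04Rik, a gene on the same strand whose start is 494 bp downstream of that of Gata3, so the call cannot be assigned to one of them. The Gata5 stretch of 190 bp ran from the coding part of the first exon into the intron behind it, held 16 CG dinucleotides (0.833 of expected) and overlapped an exon of the antisense gene Gata5os. It was covered in 4 libraries, the PBS libraries and CTX replicate 1, while the bases called in all 6 lay in the 5′ UTR and are not shown. The Gata4 sequence held 22 CG dinucleotides in 200 bp (0.838 of expected) with a GC content of 72.5%. Dense CG dinucleotides were therefore found both in a called stretch, at Gata5, and at the unmarked start of Gata4-201, while the stretches shown for Gata2 and Gata3 had fewer. Other called regions of these genes, each in 1 library, were richer, with 0.724 and 0.728 of the expected number in regions of Gata2 and 0.653 in a region of Gata3.

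Depth was not given with the lists and was recovered from the peak statistics, in reads per Mb of effective genome. It ranged from 1375 to 1957 for PBS and from 1118 to 1630 for CTX. CTX replicate 3 was the shallowest library and had the fewest peaks, 2916, against 4244 to 6378 in the PBS libraries and 4280 and 4993 in the other CTX libraries. Of 8 granulosa markers, 6 had no called interval in any library, and Fshr and Esr2 each had one in a single PBS library. Nr2f2 and Pdgfra, markers of theca and stroma, had calls in all 6 libraries, and of 5 such markers 3 had any call. Of 4 endothelial markers 1 (Kdr) was called in 1 PBS library, of 4 immune markers Ptprc and Adgre1 were called in 1 CTX library each, and none of 4 oocyte markers was called. These counts stand beside the 80.5% of all protein-coding genes with no call in any library and the 4.53% with calls in all 6. Peak lists hold no expression, so a share of other cells in the preparations was not measured, and its part in the results was not tested.

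**Figure D1:**
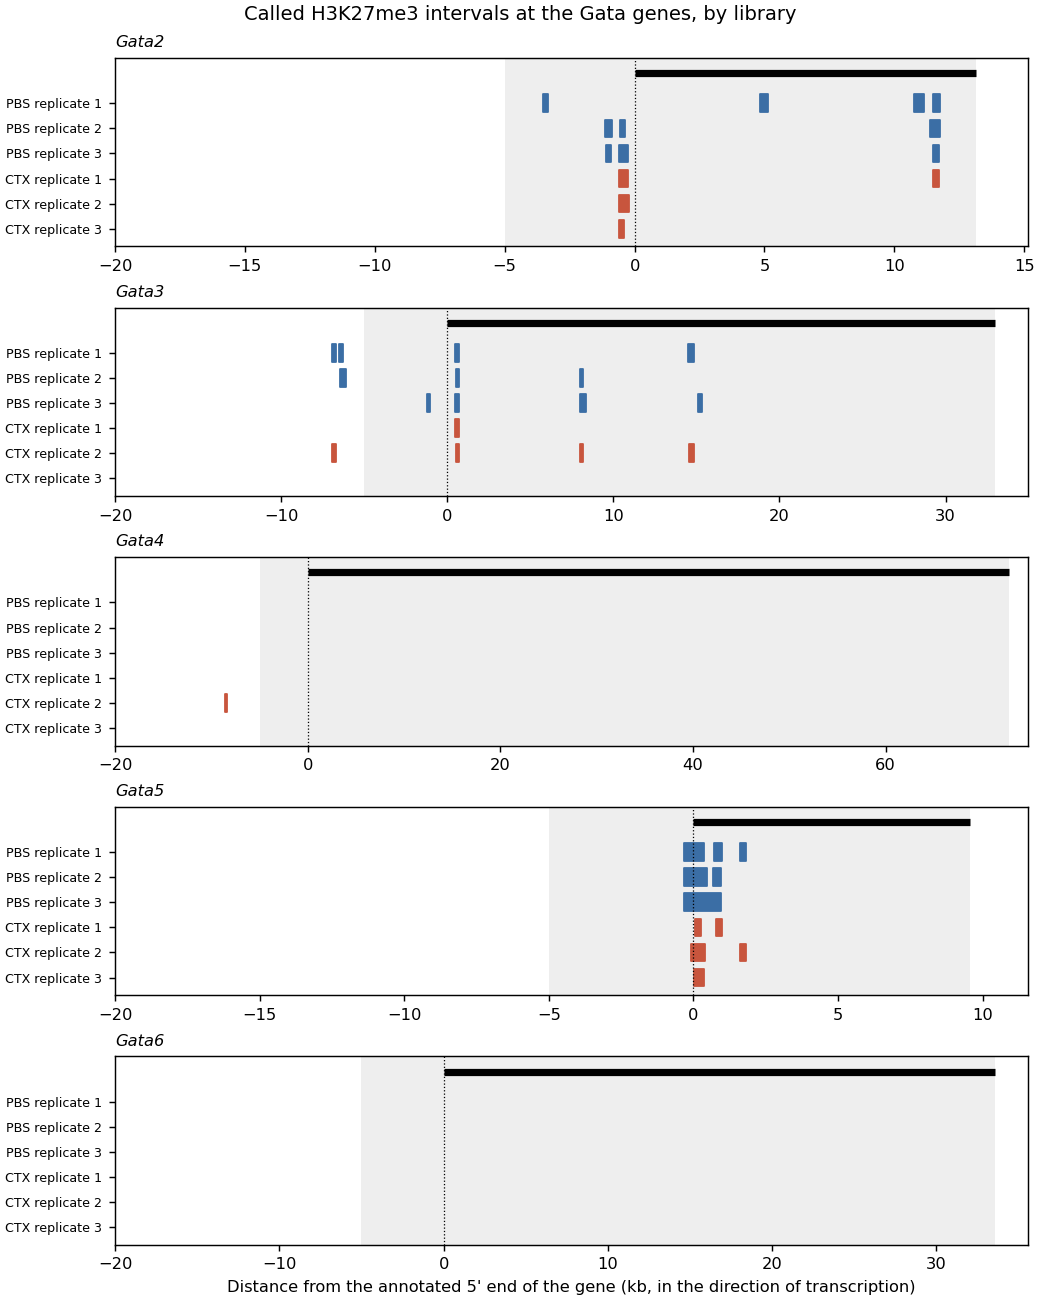
Called H3K27me3 intervals (blue, PBS; red, CTX) in each library around the 5 Gata genes, by distance from the annotated 5′ end in kb, with the gene as a black bar and the window used for values in grey. Gata4 and Gata6 are empty inside their windows, Gata5 is marked around its 5′ end in all 6 libraries, and Gata2 has 4 intervals in PBS replicate 1 at places mostly not called in the others.

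Gata5, a regulator of heart and endoderm genes, was the member with the largest share of its window covered. The gene (ENSMUSG00000015627.5) lies on the minus strand at chr2:180325133-180334699. Called intervals covered 1184, 1095 and 1303 bp in the 3 PBS libraries, by replicate number. They covered 400, 657 and 359 bp in the 3 CTX libraries. All CTX libraries lay below all PBS libraries. Mean coverage was 1194 ± 104 bp with PBS and 472 ± 162 bp with CTX (SD, n = 3 each). The CTX minus PBS difference was -722 bp and the log2 ratio -1.34 (two-sided exact permutation p = 0.1, the smallest that 3 against 3 libraries allow). With the Benjamini-Hochberg adjustment over all 4270 genes with a call in at least 1 library, the exact permutation p became 0.7.

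Nearly all of this coverage was 1 region, called in all 6 libraries, that ran from 336 bp upstream to 976 bp downstream of the 5′ end of Gata5 and held 5′ UTR, coding sequence and the start of the first intron. Within it 956, 1095 and 1303 bp were covered in the PBS libraries, and 400, 457 and 359 bp in the CTX libraries. The highest summit stood at different places in different libraries, spread over 1070 bp from 230 bp upstream to 840 bp downstream of the 5′ end. A further region in the intron, 1594 to 1821 bp downstream, was called in PBS replicate 1 and CTX replicate 2. The place of the calls was thus shared at the level of the 5′ end, and not at the level of single summits.

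Gata2, the haematopoietic progenitor factor, had calls spread over more places. The gene (ENSMUSG00000015053.14) lies on the plus strand at chr6:88193891-88207032. Covered bases numbered 1175, 847 and 790 in the PBS libraries, against 554, 378 and 200 in the CTX libraries. As at Gata5, the groups did not overlap. The means were 937 ± 208 bp and 377 ± 177 bp (SD, n = 3 each), a difference of -560 bp and a log2 ratio of -1.31 (exact permutation p = 0.1, adjusted p = 0.7). Within 2 kb of the 5′ end the difference was only -30.0 bp (exact permutation p = 1.0), with 0, 479 and 543 bp in the PBS libraries and 354, 378 and 200 bp in the CTX libraries. That value rested on PBS replicate 1, which had no call there, and was -200 bp without it and 71.2 bp without PBS replicate 3. When every list was limited to its 2916 strongest peaks, the difference was -235 bp.

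The window of Gata2 held 6 regions, of which 3 were called in 1 library, and that library was PBS replicate 1, the deepest, in each case. Of these, the region 3534 to 3324 bp upstream of the 5′ end overlapped the non-coding gene Gm38708. The region from 588 to 211 bp upstream of the 5′ end was called in 5 libraries, including all 3 CTX libraries, with highest summits within 149 bp of each other. It was not called in PBS replicate 1. The region in the last exon, 11392 to 11759 bp downstream, covered the end of the coding sequence and the start of the 3′ UTR and was called in all 3 PBS libraries and in CTX replicate 1, with highest summits within 64 bp. The region from 1129 to 851 bp upstream was called in PBS replicates 2 and 3 only. The call at the 3′ end was therefore the more frequent one in PBS libraries and the upstream call the more frequent one in CTX libraries, with numbers of libraries too small for a test.

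Gata3, the T cell factor, had a sharply placed call just downstream of its 5′ end and scattered calls elsewhere. The gene (ENSMUSG00000015619.10) lies on the minus strand at chr2:9857078-9890034. Covered bases numbered 590, 402 and 1017 in the PBS libraries against 203, 680 and 0 in the CTX libraries. The groups overlapped, since CTX replicate 2 exceeded PBS replicates 1 and 2. The means were 670 ± 315 bp and 294 ± 349 bp (SD, n = 3 each), and the groups differed by -375 bp with overlapping libraries (exact permutation p = 0.3, adjusted p = 0.969). With every list limited to its 2916 strongest peaks, the CTX libraries had 203, 208 and 0 bp and the PBS libraries were as before, so the groups no longer overlapped (difference -533 bp, exact permutation p = 0.1). Over the full lists the difference was -228 bp without CTX replicate 3, -202 bp without PBS replicate 3 and -568 bp without CTX replicate 2.

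The 5′ region of Gata3, 488 to 722 bp downstream of the 5′ end, was called in 5 libraries with summits that all fell between 597 and 616 bp, a spread of 19 bp. A region 1213 to 1014 bp upstream of the 5′ end was called in PBS replicate 3 only, with 57 reads at its summit and a −log10 q-value of 5.36. The placement of the downstream region was the tightest among the 4 regions called in at least 4 libraries. A region 7985 to 8341 bp downstream was called in PBS replicates 2 and 3 and CTX replicate 2 and overlapped 4930412O13Rik, a gene annotated as protein-coding on the other strand. Regions near 14.5 kb and 15 kb downstream, at exons of Gata3-201, were called in 2 libraries and 1 library. Upstream of the window, between 6.1 and 6.9 kb from the 5′ end, PBS replicates 1 and 2 and CTX replicate 2 had further calls.

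**Figure D2:**
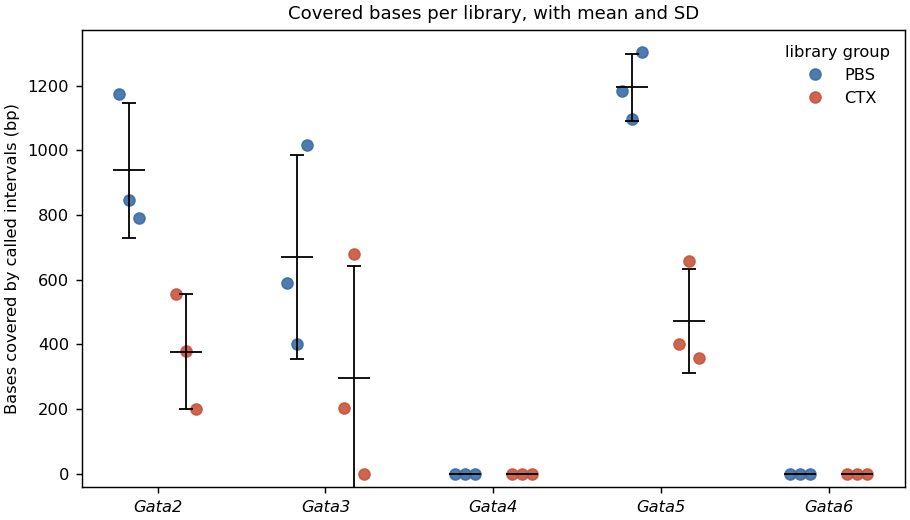
Bases covered by called intervals in the window of each Gata gene, with 1 point per library (blue, PBS; red, CTX) and the mean and SD of each group in black. PBS and CTX points are separate at Gata2 and Gata5, overlap at Gata3, where the error bar of the CTX group runs below the axis, and lie at 0 for Gata4 and Gata6.

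The pattern of Gata2 and Gata5 was not particular to them, though most genes with a call in at least 1 library did not show it. Among the 4270 genes with a call, 14.0% had lower covered bases in every CTX than in every PBS library and 0.281% had higher ones. A gene without a call in any 1 of the PBS libraries cannot be lower in this sense, so the 14.0% is over an unlike set. Only 993 of the 4270 genes were called in all 6 libraries, as Gata2 and Gata5 were, and the share among those alone was not taken. Gata2 and Gata5 were 2 of the 3 members with a call, and no member was higher. The median difference over these genes was -89.2 bp. In genes called in all 6 libraries the median log2 ratio of mean covered bases was -0.67, against -1.31 at Gata2 and -1.34 at Gata5.

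To compare the paralogs with each other, covered bases were divided by the length of the window. Gata5 was covered over 8.13%, 7.52% and 8.94% of its window in the PBS libraries and over 2.75%, 4.51% and 2.46% in the CTX libraries. Gata2 was covered over 6.48%, 4.67% and 4.35% in the PBS libraries and 3.05%, 2.08% and 1.10% in the CTX libraries. Gata3 was covered over 1.55%, 1.06% and 2.68%, and over 0.535%, 1.79% and 0%. By this share Gata5 stood above Gata2 in 5 of 6 libraries, the exception being CTX replicate 1, and Gata2 stood above Gata3 in all 6. The order depends on window length, which was 14567 bp for Gata5, 18142 bp for Gata2 and 37957 bp for Gata3. In covered bases Gata3 stood above Gata2 in PBS replicate 3 and CTX replicate 2, and below it in the other libraries. Over the 6 libraries the means were 5.72% ± 2.84, 3.62% ± 1.94 and 1.27% ± 0.953 (SD), and the ranges of neighbours in this order overlapped.

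By the strength of the strongest peak, its −log10 q-value in the list of its own library, the order was less stable. Gata3 led in PBS replicates 1 and 3, Gata5 in PBS replicate 2 and CTX replicates 1 and 2, and Gata2 in CTX replicate 3. Gata3 had 12.2, 8.19 and 12.02 in the PBS libraries and 7.23 and 6.95 in CTX replicates 1 and 2, with no peak in CTX replicate 3. These peaks ranked 622nd of 6378, 642nd of 4244 and 514th of 5325 in the PBS lists and 708th of 4280 and 1051st of 4993 in the CTX lists. Among the marked members Gata3 therefore had the smallest share of its window covered, yet where it was called its strongest peak stood at percentiles 79.0 to 90.4 of the list. With CTX replicate 3 entered as 0, the mean −log10 q-value was 10.8 ± 2.28 with PBS and 4.73 ± 4.10 with CTX (SD, n = 3 each; exact permutation p = 0.1), and the difference of -6.09 became -3.72 without that library (exact permutation p = 0.2).

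At Gata2 the strongest peak had a −log10 q-value of 6.52, 8.40 and 7.95 in the PBS libraries and 3.36, 3.80 and 3.68 in the CTX libraries. The groups were separate, with means of 7.62 ± 0.982 and 3.62 ± 0.227 (SD, n = 3 each; exact permutation p = 0.1). Since this value depends on depth, the rank within each list was compared as well. The strongest Gata2 peak stood at percentiles 69.3, 85.7 and 78.0 of the PBS lists and 45.4, 49.8 and 58.3 of the CTX lists, again without overlap (means 77.7 ± 8.17 and 51.2 ± 6.52, SD, n = 3 each; exact permutation p = 0.1). This separation depended on the length of the lists. Among the 2916 strongest peaks of each, the percentiles were 32.9, 79.1 and 59.8 with PBS and 19.9, 14.0 and 58.3 with CTX, and the groups overlapped (difference -26.5, exact permutation p = 0.2). At a q-value of at most 1e-05, a cut that also depends on depth, Gata2 kept calls in the 3 PBS libraries and in no CTX library. That pattern was shown by 0.36% of all protein-coding genes. This base includes the 80.5% without a call in any library, which cannot show it.

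At Gata5 the strongest peak had a −log10 q-value of 10.5, 9.10 and 5.55 in the PBS libraries and 7.69, 7.12 and 2.68 in the CTX libraries, and the groups overlapped (means 8.40 ± 2.57 and 5.83 ± 2.74, SD, n = 3 each; exact permutation p = 0.4). Its rank percentiles were 86.8, 88.2 and 60.9 in the PBS lists and 85.5, 79.6 and 38.0 in the CTX lists. The mean difference of -10.9 percentile points (exact permutation p = 0.5) rested on CTX replicate 3 and turned to 3.93 without it. Gata5 thus had less covered sequence in every CTX library without a separation of the groups in peak rank.

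The calls were summits on ground that was itself high. The number of reads at a summit and within the 10 kb around it were recovered from the fold enrichment and p-value of each summit. This takes the local background of the caller as reads of the library itself: at all 50 summits in the Gata windows it was a whole multiple, within 0.05 reads, of the value of 1 read in 10 kb. Whether a control library was used is not given in the sources used here, and with one these densities would be those of the control. For Gata2, the 10 kb around the highest summit held 1891, 1033 and 1290 reads in the PBS libraries and 795, 973 and 604 reads in the CTX libraries. That is 96.6, 75.1 and 80.9 times the genome-wide average density of the library for PBS, against 55.5, 59.7 and 54.0 times for CTX. All CTX values lay below all PBS values, with means of 84.2 ± 11.1 and 56.4 ± 2.95 (SD, n = 3 each; log2 ratio -0.58, exact permutation p = 0.1).

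Around Gata5 the same density was 50.2, 55.0 and 58.6 times the genome average in the PBS libraries and 45.2, 48.5 and 40.7 times in the CTX libraries, also without overlap (means 54.6 ± 4.22 and 44.8 ± 3.94, SD, n = 3 each; log2 ratio -0.28, exact permutation p = 0.1). Around Gata3 it was 69.8, 66.2 and 75.9 times in the PBS libraries and 52.3 and 52.5 times in CTX replicates 1 and 2. CTX replicate 3 gave no value there, since only called summits carry one, and no test was made. Among 987 genes with such values in all 6 libraries the median density was 27.03 times the average. Gata2 stood at percentiles 92.0 to 97.7 of these genes in the single libraries and Gata5 at 78.7 to 86.1.

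Lower density in CTX libraries was the rule among marked genes. Of the 987 genes, 81.3% had a lower density in every CTX than in every PBS library, and the median log2 ratio was -0.35. The separation at Gata2 and Gata5 was therefore shared with most genes of this kind, and the log2 ratio of Gata2 lay further from 0 than the median and that of Gata5 nearer to it. The fold enrichment of the highest summit over its surroundings was similar in both groups, at 2.48 and 2.49 on average for Gata2, 2.96 and 2.97 for Gata3 and 2.99 and 3.01 for Gata5, with overlapping groups. This ratio compares a summit with the domain around it and does not measure the level of the domain.

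**Figure D3:**
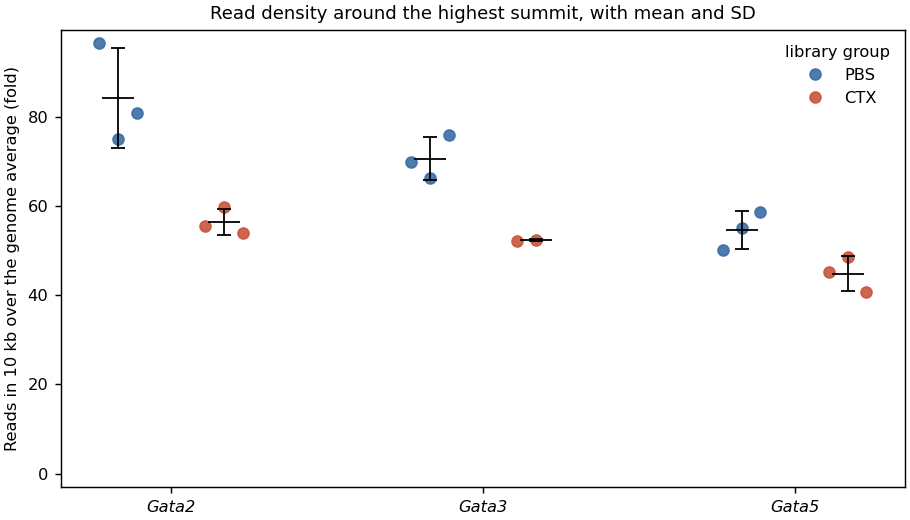
Read density in the 10 kb around the highest called summit of Gata2, Gata3 and Gata5, as fold over the genome average of the library, with 1 point per library and the mean and SD of each group. All PBS points lie above all CTX points of the same gene, and Gata3 has 2 CTX points because CTX replicate 3 had no call.

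The height of the summits was then brought to a common depth, 1000 reads per Mb. The highest pileup of Gata2 was 77, 61 and 68 reads in the PBS libraries and 39, 47 and 35 in the CTX libraries, or 39.3, 44.4 and 42.6 against 27.2, 28.8 and 31.3 after scaling. The groups were separate after scaling (means 42.1 ± 2.55 and 29.1 ± 2.06, SD, n = 3 each; log2 ratio -0.53, exact permutation p = 0.1), although the highest summit was not at the same place in all libraries. At the upstream region alone the scaled pileup was 27.2, 28.8 and 31.3 in the CTX libraries, below the 44.4 of PBS replicate 2 and the 42.6 of PBS replicate 3. At the region in the last exon it was 31.2, 33.4 and 40.1 in the PBS libraries and 27.2 in CTX replicate 1.

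For Gata3 the highest pileup was 81, 56 and 75 reads in the PBS libraries and 48 and 51 in CTX replicates 1 and 2. After scaling these were 41.4, 40.7 and 47.0 against 33.5 and 31.3. Every summit of this comparison lay in the same 19 bp, so unlike at Gata2 and Gata5 the values were from 1 place. For Gata5 the scaled pileup was 32.2, 37.8 and 31.4 in the PBS libraries and 31.4, 30.1 and 24.1 in the CTX libraries, and the groups met (means 33.8 ± 3.51 and 28.5 ± 3.86, SD, n = 3 each; log2 ratio -0.24, exact permutation p = 0.2). Of the 987 genes, 41.2% had a lower scaled pileup in every CTX library, with a median log2 ratio of -0.30. Gata2 was thus 1 of many genes with separate groups. A single summit of 27 to 81 reads has a wide counting interval, and those of PBS and CTX libraries overlapped at every region plotted. Overlap between intervals of single libraries does not test the difference between the groups.

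**Figure D4:**
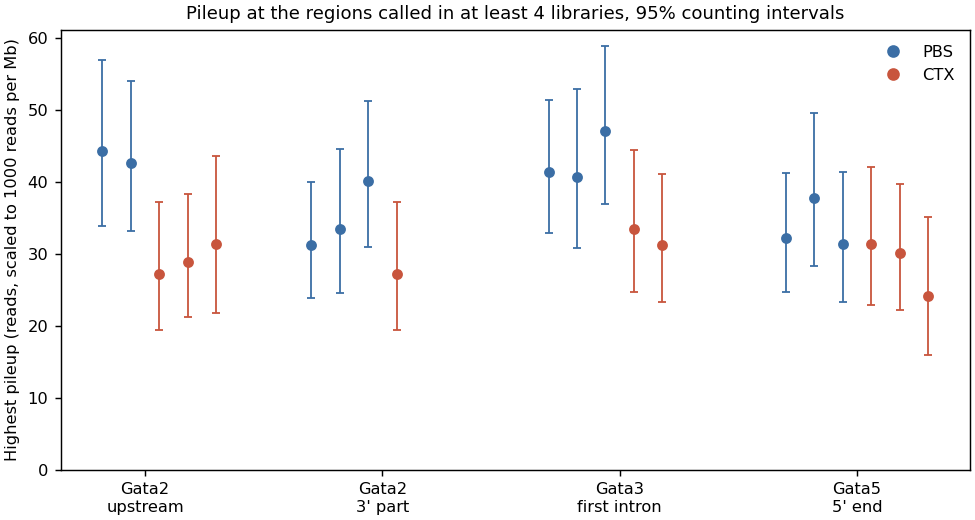
Highest pileup at the 4 regions called in at least 4 libraries, in reads at a common depth (1000 reads per Mb), with 1 point per library that had the call (blue, PBS; red, CTX). Bars are exact 95% Poisson intervals, which cover counting error only, and they overlap between the groups at each region.

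A library without a call carried no read number for that region, so the calls of the other libraries were scaled to its depth. They were set beside the reads a call would have needed at the mean of their backgrounds, scaled in the same way. The upstream region of Gata2 was not called in PBS replicate 1, where the other 5 libraries corresponded to 68.3 reads (53.3 to 86.8) and 47 were needed. The Gata3 region was not called in CTX replicate 3, where they corresponded to 43.4 reads (34.99 to 52.6) and 32 were needed. The Gata2 region in the last exon, from its 4 called libraries, corresponded to 53.8 reads (44.3 to 65.4) in CTX replicate 2, with 41 needed, and to 36.9 reads (30.4 to 44.9) in CTX replicate 3, with 32 needed. The lowest scaled value thus fell short of the need only in this last case. The reads that these libraries held there were not observed, and the cause of the missing calls was not tested. This calculation was added after the values were seen.

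At Gata4, a factor that GCs need for follicle development, the window of 77771 bp (gene ENSMUSG00000021944.15, chr14:63198922-63271692, minus strand) held no called interval. The nearest intervals were 208, 308 and 232 kb away in the PBS libraries and 309 and 246 kb in CTX replicates 1 and 3, all upstream. CTX replicate 2 had a call 3.42 kb outside the window, with its summit 8523 bp upstream of the 5′ end. It rested on 6 reads in surroundings of 1.60 times the genome average, had a −log10 q-value of 2.51 and stood at percentile 29.6 of its list. The lowest pileup that was called anywhere was 4 reads in every library, so this call stood close to that limit.

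At Gata6, the other paralog of GCs, the window of 38572 bp (gene ENSMUSG00000005836.10, chr18:11052064-11085635, plus strand) was likewise free of calls. The nearest interval was 108 kb downstream in PBS replicate 1 and 203 kb downstream in each of the other 5 libraries. A domain of even height without a summit above its own surroundings would also give no call, so these lists bound the signal at Gata4 and Gata6 only as far as the caller does.

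The base composition of the 1 kb centred on transcript starts was compared between the marked and the unmarked members. Only starts of protein-coding transcripts were taken, and starts close to one already taken were left out. Over all protein-coding genes the median GC content was 54.8% and the median ratio of observed to expected CG dinucleotides was 0.553. Gata2-202 had 68.0% and 0.766, and Gata5-201 had 63.1% and 0.693, so both lay above these medians. The inner start Gata2-203 had 64.4% and 0.660. Gata3-202, which starts at the 5′ end of the marked gene, had 54.0% and 0.481, below both. The inner start Gata3-201, 11434 bp downstream of that end, had 54.0% and 0.637, so its ratio lay above the median. Of the unmarked genes, the inner starts Gata4-201 (61.7% and 0.663) and Gata6-206 (59.7% and 0.645) lay inside the range of the marked ones. Gata6-203, at the 5′ end of Gata6, had 57.3% and 0.527, also inside that range but with a ratio below the median. The outermost Gata4 start, Gata4-204, was poor in CG dinucleotides (0.174), and so was Gata4-203 (0.150).

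**Figure D5:**
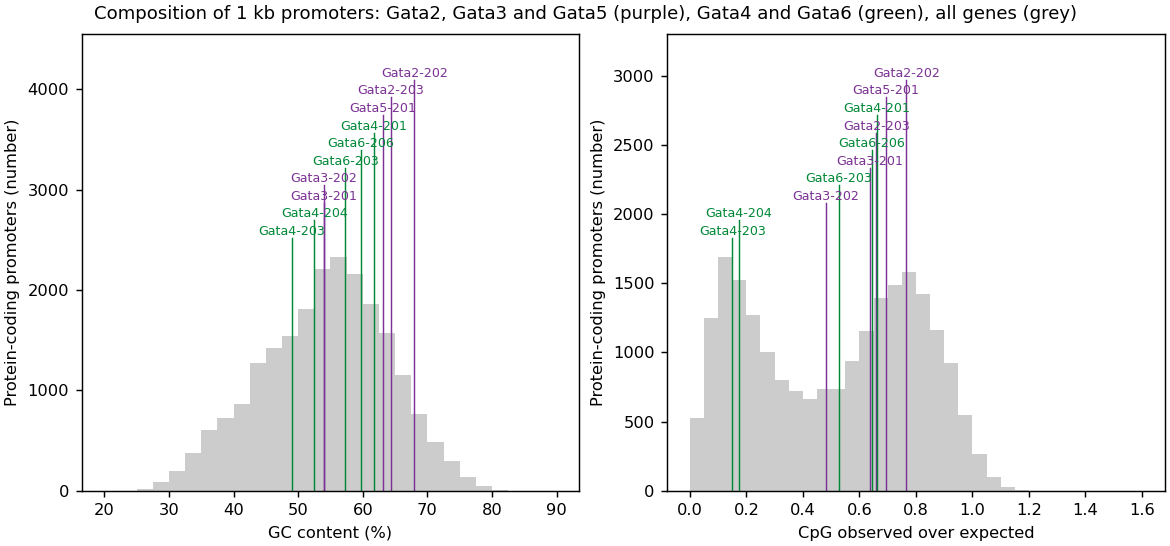
GC content in percent (left) and observed over expected CG dinucleotides (right) of the 1 kb centred on transcript starts of the Gata genes. Marked genes are purple and unmarked genes green, over histograms of all protein-coding promoters (grey). The starts Gata4-201 and Gata6-206 stand among those of Gata2, Gata3 and Gata5, and the heights of the coloured lines carry no value.

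Other genes of the GATA network were taken from lists. None of 6 further genes with a GATA-type zinc finger (Gata1, Trps1, Zglp1, Gatad1, Gatad2a and Gatad2b) had a called interval in any library, as was the case for 80.5% of all genes. Of 14 partner factors, which bind DNA or chromatin together with GATA proteins, 9 had a call in at least 1 library and 1, Nkx2-5, in all 6, beside 4270 of the 21938 protein-coding genes and the 4.53% given above. Nkx2-5, a heart homeobox factor, was covered over 1175, 539 and 767 bp in the PBS libraries and 309, 506 and 214 bp in the CTX libraries. Tbx5, a T-box factor of heart and forelimb, had 679, 341 and 1418 bp and 200, 0 and 334 bp. Tal1 and Lyl1, which join Gata2 in complexes of blood cells, were called in 5 libraries each, all but CTX replicate 3. Tal1 was covered over 556, 56 and 818 bp with PBS and 277, 572 and 0 bp with CTX, and Lyl1 over 230, 840 and 443 bp against 216, 442 and 0 bp, so the groups overlapped at both.

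Nkx2-5, Tbx5 and Hand2 were lower in every CTX than in every PBS library, 3 of the 9 called partners beside the 14.0% of called genes given above, and none was higher. Hand2, a factor of heart and limb named after its values were seen, had 380, 385 and 726 bp with PBS and 0, 286 and 200 bp with CTX. The median over the 14 partners of the mean covered bases was 175 bp, against 0 bp over all protein-coding genes. Also named after their values were seen, Zfpm1 and Zfpm2, the FOG cofactors of GATA proteins, and Ldb1, Klf1 and Mef2c had no call. Of 13 granulosa genes at which GATA4 or GATA6 act, among them Star, Cyp19a1 and Inha, 12 had no call. Of all protein-coding genes, 80.5% had none in any library. The called granulosa gene was Fshr, the receptor of follicle-stimulating hormone, with 200 bp in PBS replicate 3 at percentile 23.0 of its list.

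The genes most alike to each marked member were found by the rank percentile of the strongest peak, as the mean absolute difference over the 6 libraries. For Gata2 these were Bmp4, a secreted growth factor, with a mean difference of 6.13 percentile points, Chrm4, a muscarinic receptor (7.64), and Mn1 (8.19). For Gata3 the first was 9230102O04Rik (0), which shares the same peak, followed by Cyp26c1, an enzyme of retinoic acid breakdown (2.19), and Sfmbt2, a Polycomb group protein (4.19). For Gata5 they were Ret, a receptor tyrosine kinase (2.67), Ntsr1, a neurotensin receptor (3.39), and Prr18 (6.10). Ret, like Gata5, stood lowest in CTX replicate 3, at percentile 36.1 against 65.4 to 89.8 elsewhere. It was chosen by these same percentiles, so this likeness is not a separate result.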

How the data were processed

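H3K27me3 CUT&Tag libraries of GCs, 3 PBS and 3 CTX, were analysed from the deposited peak lists, 1 list per library. The authors aligned reads to mm10 with BWA, retained unique alignments after removing duplicates, and called narrow peaks with MACS2 2.1.0 at a q-value threshold of 0.05. The submitters' processing notes also name fastp, HOMER 4.9.1, ChIPseeker and bedtools. Whether a control library was used in peak calling is not given in the sources used here. Each deposited row holds a score, a fold enrichment (the ratio of pileup to local background), a −log10 p-value and a −log10 q-value. The score was used only as the authors' own value and entered no comparison.

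Intervals of a library that overlapped were merged, and bases inside the window from 5000 bp upstream of the 5′ end (GENCODE M21) to the 3′ end were summed. No interval ended beyond its chromosome in GRCm38 (0 of 36917). A library without a call entered with 0 bp, −log10 q-value 0 and rank percentile 0. The rank percentile is the share of the merged peaks of a list, the peak included, that rank no higher by −log10 q-value. Pileup and background were solved from fold enrichment, (pileup + 1)/(background + 1), and the Poisson p-value, for 99.7% to 99.8% of summits and all 50 in the Gata windows. The most frequent background gave the depth. The solver was tested on simulated data. No spike-in was used here, so values are relative to depth. PCR reads are not independent molecules, and intervals cover counting error only.

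Two-sided exact permutation tests over libraries compared the groups, the same test was run for all 4270 genes with a call, and p-values were adjusted by Benjamini-Hochberg. Libraries of a group were described as biological replicates from separate pools of mice. Alternatives were a stricter q-value (0.01 and 1e-05), equal peak numbers (2916), other windows (2 kb around the 5′ end, and 20 kb on either side), summits in place of intervals, joining within 1000 bp, unscaled pileups, the replicate number as a block and leaving out each library. The members and lists were chosen with earlier results of these data known. The 5 Gata genes, lists of related genes with up to 4 examples, genes inside a window, and the 3 genes most alike in rank percentile were named. Non-coding genes inside a window also included Gm38708 at Gata2, Gm13256 at Gata3 and 1010001N08Rik at Gata6. Python 3.11.15, numpy 2.4.6, pandas 2.3.3, scipy 1.17.1 and matplotlib 3.10.9 were used.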

Additional observations from a re-analysis of the deposited data

How the results depend on the processing

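The covered bases of Gata2, Gata3 and Gata5 stayed lower in the CTX group under each alternative that changed 1 choice. Leaving out 1 library gave differences of -648 to -441 bp at Gata2, -568 to -202 bp at Gata3 and -815 to -666 bp at Gata5. With the 2 kb window, leaving out 1 library, an alternative chosen after seeing the data, gave -200 to 71.2 bp at Gata2. With 1000 bp joining the Gata2 difference was -869 bp. For Gata3, with 20 kb on either side it was -566 bp, and with the window within 2 kb it was -146 bp. With a window from Gata3-201, an alternative chosen after seeing the data, the Gata3 difference was -230 bp. Gata3-201 starts 11434 bp downstream of the 5′ end used elsewhere. That window therefore left out the region 488 to 722 bp downstream, the one called in 5 libraries. The Gata5 rank percentile difference ranged from -19.9 to 3.93 with 1 library left out, turning sign without CTX replicate 3, and was -0.263 with equal peak numbers. At a q-value of 1e-05, calls were left in 3 libraries at Gata2. With 20 kb on either side Gata4 had a call in 1 library, CTX replicate 2, and a difference of 66.7 bp. The number of genes lower in every CTX library, 598, was 324 at a q-value of 1e-05, 381 with equal peak numbers, 1034 with 20 kb on either side and 624 to 1324 with 1 library left out. The number higher, 12, was 24 with equal peak numbers, 6 within 2 kb and 14 to 72 with 1 library left out. Without scaling to depth the Gata5 pileup groups separated, with a difference of -14.7 reads (exact permutation p = 0.1). The causes were not tested. Replicate numbers were shared between groups, and the deviations of same-numbered libraries correlated at 0.0232, -0.493 and -0.191. With 3 libraries per group these values cannot decide whether the numbers pair the libraries. With the number as a replicate block the differences stayed at -560, -375 and -722 bp, with exact permutation p = 0.25 at Gata2, 0.5 at Gata3 and 0.25 at Gata5, where 0.25 is the smallest that 3 pairs allow. CTX replicate 3 had the lowest depth, and the part of depth in its missing calls was not tested.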

Other observations

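Beyond the Gata6 window, all 6 libraries had a call 203 kb downstream of the gene, with a −log10 q-value of 6.97 in PBS replicate 1. In the other 5 libraries it was the nearest call to the gene. There its summits rested on 17 and 20 reads in PBS replicates 2 and 3 and on 46, 26 and 13 reads in CTX replicates 1, 2 and 3, in surroundings of only 1.82 to 3.91 times the genome average. It stood at percentiles 93.6 to 98.9 of its lists, above the strongest Gata2 peak of the same libraries, which rested on more reads in 4 of these 5 libraries. A place in the lists thus did not order these sites by their number of reads.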
